A study of Homo sapiens with 6 samples.

Results

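Interferon-stimulated genes are the effectors of the interferon response. Interferons bind receptors that signal through JAK kinases to transcription factors, which bind a DNA motif, the interferon-stimulated response element, in the promoters of its targets. The targets include enzymes that degrade or edit viral RNA or limit nucleotides, GTPases that trap viral particles, the ubiquitin-like protein ISG15 with its conjugation machinery, and membrane proteins that block entry or release of virions. Described here are 42 such antiviral genes, taken by their symbols from the 57905 genes of the count table, with the IFIT, OAS, GBP, nucleic acid sensor, HLA and TRIM families left out. Each symbol matched 1 gene. They were measured in RT4, an established cell line from a non-muscle invasive, epithelial bladder cancer.

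LEADR-KD cells received the siRNA against *LEADR*, a long non-coding RNA from the *MIR205HG* gene, and Scramble cells received a commercial control siRNA. Each siRNA was used at 100 pmol for 48 h on wild-type RT4 cells with the same lipid reagent, and poly(A) RNA was sequenced from 3 libraries per group, named LEADR-KD 1, 2 and 3 and Scramble 1, 2 and 3. The results rest on 1 cell line and 1 *LEADR* siRNA, and no untransfected cells were among the libraries. The paper's methods speak of biological replicates, but nothing in the labels states that the libraries of a group are separate cultures, so p values measure the spread between these libraries, which may be partly technical. Within the values of a group, libraries are given in the order 1, 2 and 3.

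The *LEADR* siRNA is shown because its sequence sets both its target and the matches searched in the antiviral genes. The strand listed by the submitters has the sense of *MIR205HG* RNA, and its complement, derived here, is the strand that pairs with it. Capitals mark bases 2 to 8, the seed, and both strands are written 5′ to 3′.
LEADR siRNA, listed strand: aACUGGGUgcuuuauauagga
LEADR siRNA, complement: uCCUAUAUaaagcacccaguu
In GRCh37, the build also known as hg19, the target lies at chr1:209602734-209602753 and ends with the first base of the next exon, at position 209603770, so that it spans a splice junction of *MIR205HG*. It was present in 13 of 17 annotated isoforms. *MIR205HG* was at 7.08, 11.6 and 5.72 CPM (counts relative to the library total, scaled between libraries by the trimmed mean of M values) in LEADR-KD, against 30.1, 17.3 and 20.7 CPM in Scramble, a log2 fold change of -1.47 (SE 0.26, adjusted p = 0.00180). The groups did not overlap. Throughout, the test is edgeR's quasi-likelihood test with Benjamini-Hochberg adjustment over the 14178 genes with enough counts, a log2 fold change is positive where the level was higher in LEADR-KD, and "rose" or "fell" is used of a gene whose adjusted p was under 0.05.

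Total counts per library ranged from 15706033 to 18960822, and the share of mitochondrial counts was 10.8%, 5.73% and 4.79% in LEADR-KD, against 11.9%, 4.57% and 3.06% in Scramble. Of 15 urothelial and epithelial markers 14 had enough counts to be tested, with a summed level of 2509.6 to 2729.5 FPKM (fragments relative to gene length and library total) in LEADR-KD and 2113.5 to 2364.5 FPKM in Scramble. The marker of umbrella cells *KRT20* was near 0. None of 9 leukocyte markers had enough counts, 6 of them were at 0 in every library, *PTPRC* and *CD3E* were at or near 0, and their summed level was 0.134 to 0.232 FPKM in LEADR-KD and 0.0309 to 0.132 FPKM in Scramble. Fibroblast markers summed to 2.58 to 3.74 FPKM in LEADR-KD and 3.76 to 4.59 FPKM in Scramble, with 2 of 6 tested, and endothelial markers to 0.256 to 0.459 FPKM in LEADR-KD and 0.723 to 1.04 FPKM in Scramble, with 1 of 3 tested.

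The antiviral genes had no common baseline, and they varied more among the Scramble libraries than the typical gene. Scramble 3 was the highest Scramble library in 37 of the 40 tested antiviral genes (31.9% of all genes tested), and Scramble 2 the lowest in 36 (27.2%). In LEADR-KD, library 3 was the highest in 39 of 40 (33.2% of all genes) and library 1 the lowest in 36 (37.9%). The median antiviral gene had a ratio of highest to lowest library of 1.59 in LEADR-KD and 2.13 in Scramble, against 1.24 and 1.23 over all genes. Ratios over 2 occurred in 8 of the 40 genes in LEADR-KD (9.63% of all genes tested) and in 22 in Scramble (9.71%).

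Relative to each gene's own mean over the 6 libraries, the median antiviral gene was at log2 levels of 0.09, 0.30 and 0.79 in LEADR-KD and of -0.49, -0.93 and 0.17 in Scramble. Scramble 3 was thus above LEADR-KD 1 on this scale, and it exceeded LEADR-KD 1 in 24 of the 40 genes (51.3% of all genes tested), LEADR-KD 2 in 16 (50.6%) and LEADR-KD 3 in 4 (50.6%). Scramble 1 was below all 3 LEADR-KD libraries in 34 genes (34.3% of all genes) and Scramble 2 in 38 (32.3%). In LEADR-KD the mitochondrial share ran opposite to the antiviral levels. In Scramble its lowest value was that of Scramble 3, the library with the highest antiviral levels, while Scramble 2, with the lowest, had the middle share. The part of this share in the spread was not tested.

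**Figure D1:**
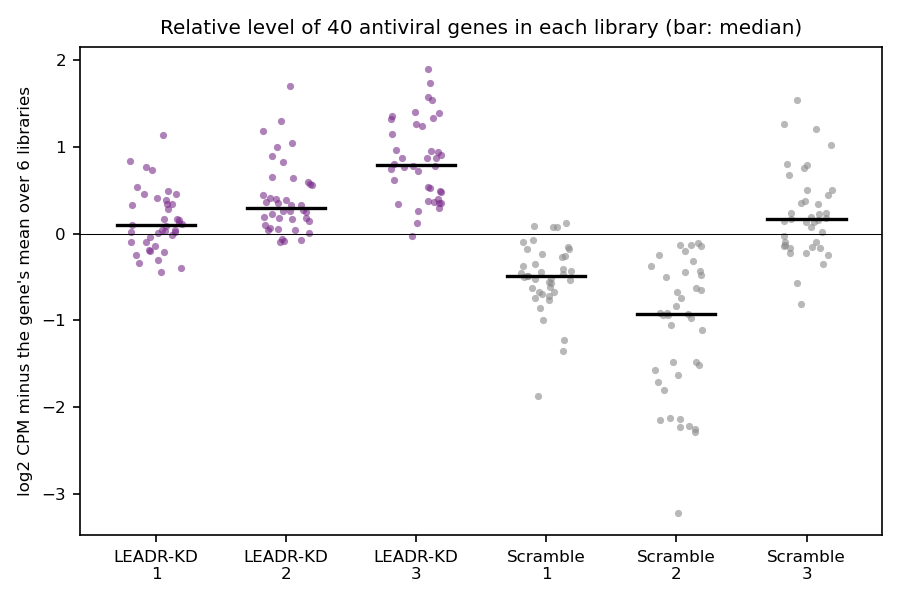
Log2 CPM of each of the 40 tested antiviral genes minus that gene's mean over the 6 libraries, by library, with LEADR-KD in purple, Scramble in grey and the median as a bar. The medians are 0.09, 0.30 and 0.79 in LEADR-KD 1 to 3 and -0.49, -0.93 and 0.17 in Scramble 1 to 3.

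Of the 42 genes 40 had enough counts to be tested. Of these 18 rose, 0 fell and 22 did not pass, where 12.2% of all genes tested rose and 12.1% fell. A rise of more than 1 on the log2 scale was seen in 9 of the 40, against 1.64% of all genes. The median log2 fold change of the 40 was 0.71, with quartiles of 0.37 and 1.21, against -0.01 over all genes. The sign was positive in 36 genes and negative in 4, *ADAR*, *PARP14*, *RTP4* and *PML*, none of which passed. As in any bulk sample, fewer cells of a kind and less RNA per cell cannot be told apart. All 3 LEADR-KD libraries lay above all 3 Scramble libraries in 16 of 40 genes, against 19.9% of all genes, and below them in 0, against 19.9%.

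The number of calls depended on Scramble 3, the library with the highest antiviral levels among the controls. Without it 30 genes rose, where 9.33% of all genes did, and the median log2 fold change was 1.10. Leaving out the highest control raises most of these fold changes by itself, so that fit is no separate support for a rise. Leaving out Scramble 2, the lowest control, gave 14 genes (8.6% of all genes) and a median of 0.50, and leaving out LEADR-KD 3 gave 13 (9.2%) and 0.47. No gene fell in any of these fits, and 13 of the 18 that rose were called in all 6 fits with 1 library left out.

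**Figure D2:**
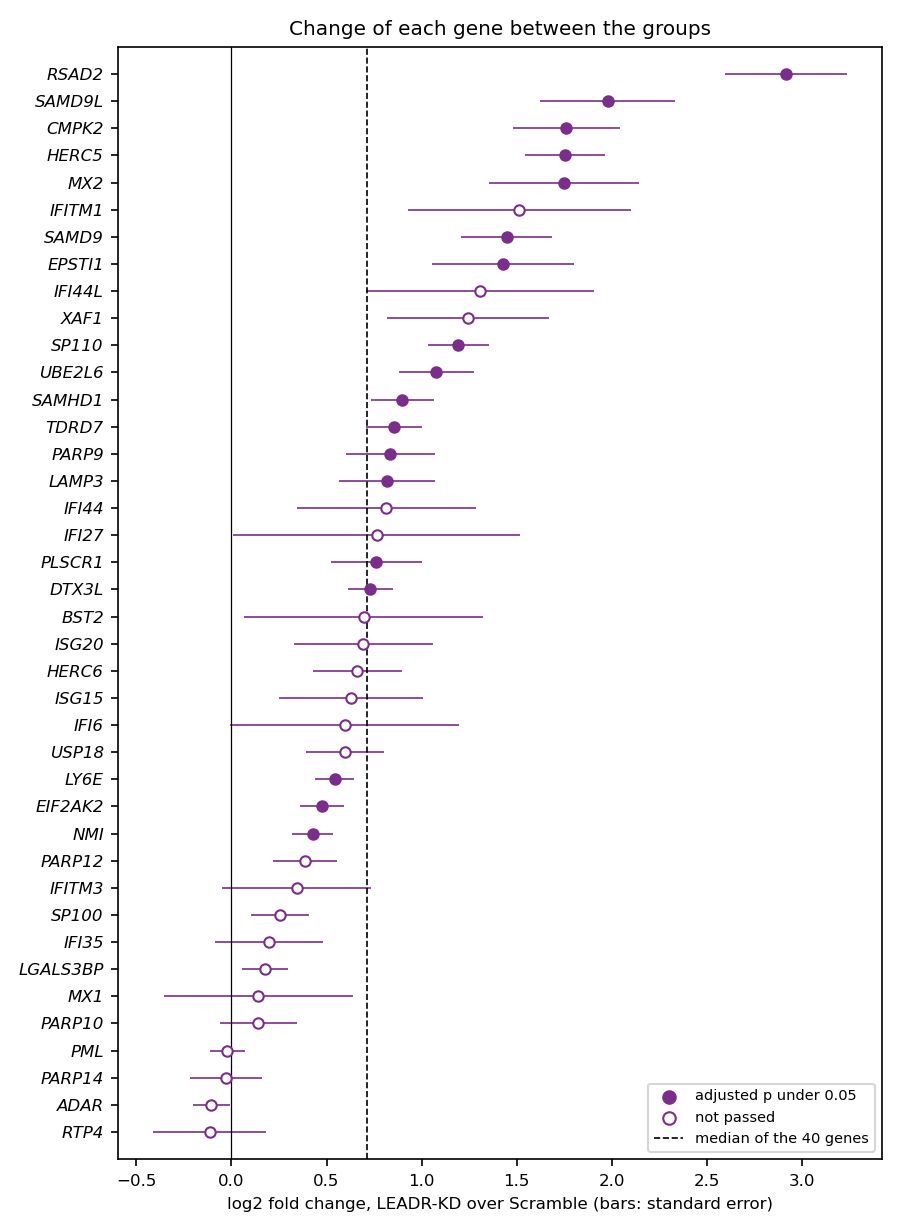
Log2 fold change of each tested antiviral gene, LEADR-KD over Scramble, with its standard error (edgeR, 3 libraries per group). Filled points are the 18 genes that rose, open points the 22 that did not pass, and the dashed line is the median of 0.71; *RSAD2* stands at the top with 2.91.

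The 2 genes not tested were *IFITM2*, an inhibitor of virus fusion, and *BATF2*, a transcription factor. *IFITM2* had 0 counts in every library, and *IFITM1* lies on the same strand inside the bounds given for it. *BATF2* had 0, 12 and 10 counts in LEADR-KD and 3, 8 and 5 in Scramble.

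The promoters of these genes are shown because the response element is the feature that ties them to the interferon pathway. RefSeq promoter sequences of GRCh38.p14, from 250 bases before to 50 after the start, were matched by symbol for 35 of the 42 genes, and the build differs from that of the counts. The core of the element was searched as 2 copies of GAAA separated by 2 bases, on both strands and with overlaps allowed. It was present in 21 of 35 promoters (60%), against 3.57% of all 35116 promoters of the table. Of the genes that rose 7 of 15 held it (46.7%), and of those that did not pass 14 of 19 (73.7%). The gamma-activated site, searched as TTC and GAA separated by 3 bases, was in 8 of 35 (22.9%), against 7.66% of all promoters. A match is a string of letters and not a measured binding site.

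The following 40-base windows carry the core in capitals, read on the strand of the gene, so that a core on the other strand appears as TTTC. Positions count from 1 at the first transcribed base, with -1 the base before it. The first 4 belong to genes that rose, and the other 4 to genes whose Scramble levels spread widely and that did not pass.
HERC5, chr4:88457030-88457069, plus strand, core at -74: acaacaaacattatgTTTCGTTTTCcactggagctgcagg
DTX3L, chr3:122564317-122564356, plus strand, core at -6: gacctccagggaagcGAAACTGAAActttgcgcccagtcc
SAMD9, chr7:93118091-93118130, minus strand, core at -136: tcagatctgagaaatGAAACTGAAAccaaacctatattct
EPSTI1, chr13:42992267-42992306, minus strand, core at -50: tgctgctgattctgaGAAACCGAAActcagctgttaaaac
ISG15, chr1:1013375-1013414, plus strand, core at -107: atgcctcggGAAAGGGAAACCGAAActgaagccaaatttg
BST2, chr19:17405730-17405769, minus strand, core at -124: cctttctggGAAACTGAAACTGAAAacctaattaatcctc
IFI27, chr14:94110626-94110665, plus strand, core at -95: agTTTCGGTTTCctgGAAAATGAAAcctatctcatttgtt
IFI44L, chr1:78620360-78620399, plus strand, core at -73: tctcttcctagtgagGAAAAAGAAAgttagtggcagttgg
*ISG15*, *BST2* and *IFI27* held a second core within the window shown, overlapping the first in *ISG15* and *BST2*. No core of this spelling was in the promoter window of *RSAD2*, *CMPK2*, *SAMHD1*, *UBE2L6*, *PARP9*, *SAMD9L*, *TDRD7* or *SP110*, all of which rose.

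The enzymes that act on nucleotides and RNA held the largest change of the whole list, with 4 of 6 rising. *RSAD2* encodes viperin, a radical SAM enzyme that makes a chain-terminating nucleotide. It was at 23.8, 35.1 and 35.9 CPM in LEADR-KD, against 2.94, 2.46 and 7.28 CPM in Scramble, a log2 fold change of 2.91 (SE 0.32, adjusted p = 8.23e-05). Its lowest LEADR-KD library was well above its highest Scramble library. *CMPK2*, a mitochondrial nucleotide kinase, is the neighbour of *RSAD2* on chromosome 2, on the opposite strand and with 830 bases in common. It was at 17.0, 24.9 and 29.8 CPM in LEADR-KD, against 6.24, 4.47 and 10.6 CPM in Scramble (log2 fold change 1.76, SE 0.28, adjusted p = 0.000974). Whether reads were counted by strand is not given, so those of the shared stretch may be mixed.

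*SAMHD1*, which hydrolyses deoxynucleotides and thereby starves reverse transcription, was at 82.0, 82.3 and 108 CPM in LEADR-KD, against 48.6, 36.5 and 61.0 CPM in Scramble (log2 fold change 0.90, SE 0.17, adjusted p = 0.00254). *EIF2AK2*, the kinase PKR that senses double-stranded RNA and halts translation, was at 83.4, 84.0 and 96.3 CPM in LEADR-KD, against 70.6, 52.5 and 66.6 CPM in Scramble (log2 fold change 0.48, SE 0.12, adjusted p = 0.0115). Both rose without overlap of the groups. *ISG20*, an exonuclease, spanned 2.19 to 4.19 CPM in LEADR-KD and 1.39 to 2.57 CPM in Scramble (log2 fold change 0.69, adjusted p = 0.203). *ADAR*, which deaminates adenosines in double-stranded RNA, spanned 449 to 475 CPM in LEADR-KD and 441 to 552 CPM in Scramble (log2 fold change -0.11, adjusted p = 0.481). These 2 genes overlapped between the groups and did not pass.

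Of the dynamin-like GTPases, whose genes lie 10.9 kb apart on chromosome 21, 1 of 2 rose. *MX2*, which acts on HIV-1 at the nuclear pore, was at 25.9, 38.1 and 48.5 CPM in LEADR-KD, against 11.9, 3.85 and 18.0 CPM in Scramble (log2 fold change 1.75, SE 0.39, adjusted p = 0.00774). *MX1*, which acts on influenza and other viruses, was at 35.3, 56.2 and 87.7 CPM in LEADR-KD, against 52.3, 13.8 and 97.1 CPM in Scramble (log2 fold change 0.14, SE 0.50, adjusted p = 0.871). *MX2* was separated between the groups. For *MX1* the highest of the 6 libraries was Scramble 3 and the lowest Scramble 2. The difference between both genes was not tested.

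In the ISG15 system 2 of 5 genes rose, the conjugating enzyme and a ligase. *UBE2L6*, the E2 enzyme that carries ISG15, was at 71.3, 71.0 and 108 CPM in LEADR-KD, against 39.4, 29.4 and 50.1 CPM in Scramble (log2 fold change 1.08, SE 0.20, adjusted p = 0.00227). *HERC5*, the main ISG15 ligase in human cells, was at 6.95, 7.21 and 7.25 CPM in LEADR-KD, against 2.36, 1.80 and 2.21 CPM in Scramble (log2 fold change 1.75, SE 0.21, adjusted p = 0.000149). The *HERC5* libraries were close together within each group, with ratios of highest to lowest of 1.04 in LEADR-KD and 1.31 in Scramble, and in Scramble library 1, not library 3, was the highest.

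*ISG15* itself was at 28.4, 32.3 and 55.3 CPM in LEADR-KD, against 25.03, 10.1 and 40.3 CPM in Scramble (log2 fold change 0.63, SE 0.38, adjusted p = 0.265). *USP18*, which removes ISG15 from proteins and dampens the type I receptor, was at 32.6, 35.4 and 42.6 CPM in LEADR-KD, against 20.5, 18.4 and 34.4 CPM in Scramble (log2 fold change 0.60, SE 0.20, adjusted p = 0.0541). *HERC6*, the ISG15 ligase of the mouse, was at 39.5, 45.8 and 64.2 CPM in LEADR-KD, against 31.9, 20.4 and 42.5 CPM in Scramble (log2 fold change 0.66, SE 0.23, adjusted p = 0.0608). In these 3 genes Scramble 3 overlapped the LEADR-KD libraries, and none passed. Without Scramble 3 each passed, with log2 fold changes of 1.15, 0.92 and 0.93. With another library left out, these were as low as 0.25, 0.43 and 0.42. *USP18* also passed in DESeq2 with all 6 libraries (adjusted p = 0.0114).

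**Figure D3:**
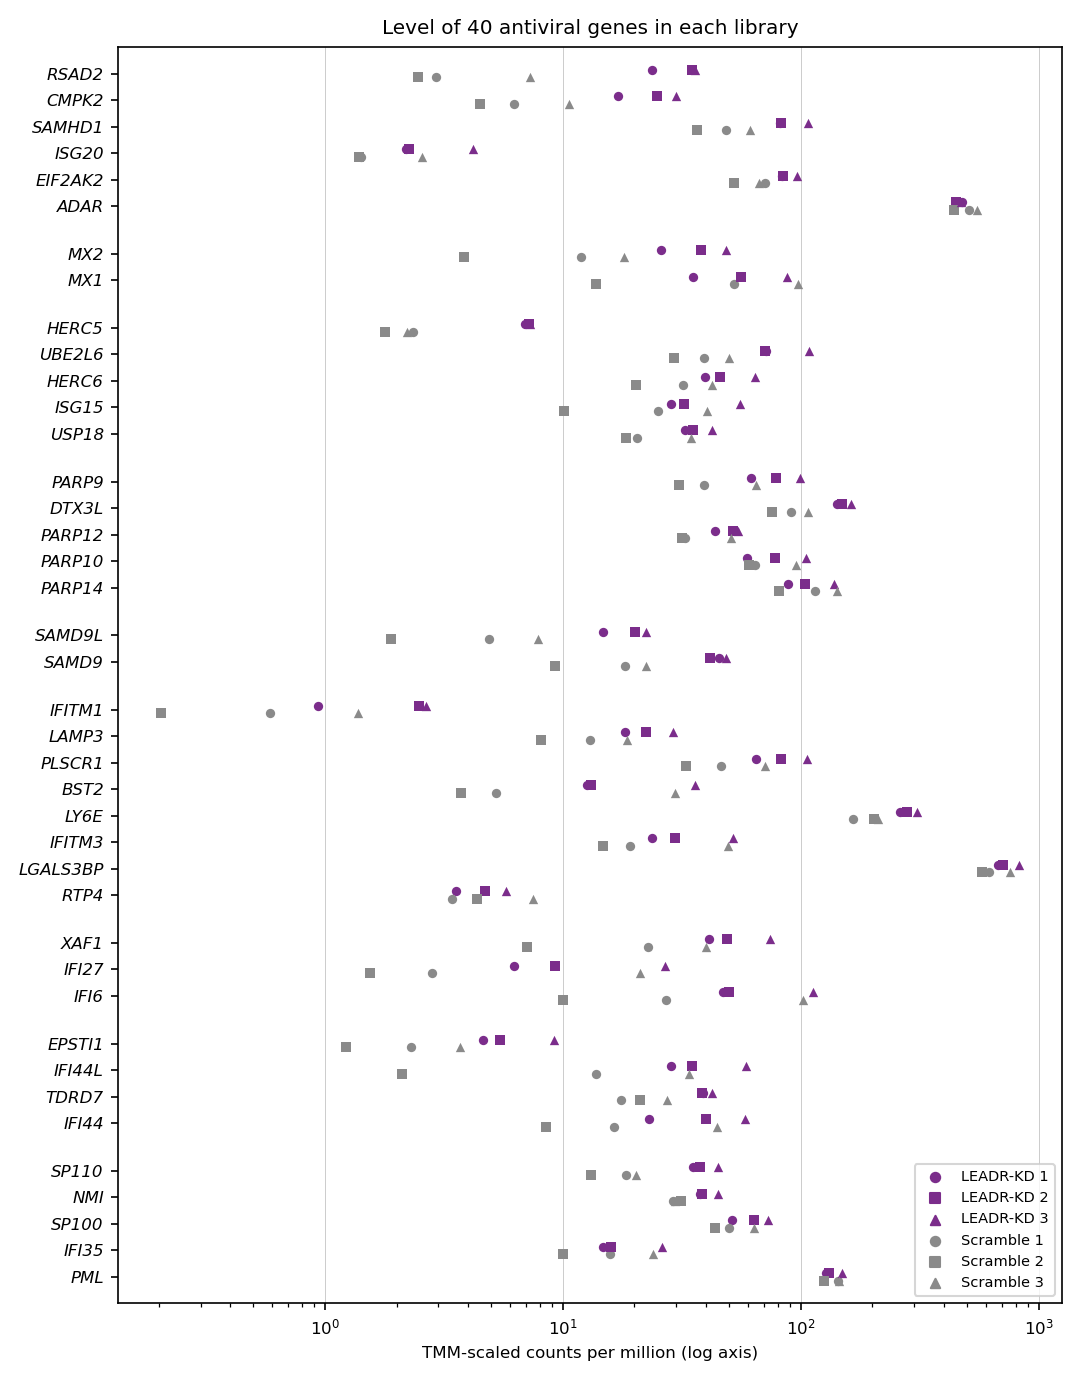
CPM of each tested antiviral gene in each library on a log axis, grouped by role in the order of the text, with LEADR-KD in purple above Scramble in grey and 1 symbol per library number. In *RSAD2*, *HERC5* and the *SAMD9* genes the colours are separated, while in *BST2*, *IFI6* and *IFI27* Scramble 3 lies among the LEADR-KD libraries and in *MX1* above them.

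Of the genes of ADP-ribosylation 2 of 5 rose, and these are the partners of 1 complex. *DTX3L*, a ubiquitin ligase, was at 142, 149 and 163 CPM in LEADR-KD, against 91.2, 75.4 and 107 CPM in Scramble (log2 fold change 0.73, SE 0.12, adjusted p = 0.000976). *PARP9*, which binds it, was at 61.8, 78.7 and 99.0 CPM in LEADR-KD, against 39.3, 30.7 and 64.7 CPM in Scramble (log2 fold change 0.83, SE 0.24, adjusted p = 0.0237). *DTX3L* was separated between the groups, and in *PARP9* LEADR-KD 1 lay below Scramble 3. The *PARP9* call was lost in DESeq2 (adjusted p = 0.0860) and without any 1 of LEADR-KD 2, LEADR-KD 3, Scramble 1 or Scramble 2 (adjusted p up to 0.0913). Both genes lie on opposite strands of chromosome 3 with 340 bases in common.

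The mono-ADP-ribosyltransferases *PARP10*, *PARP12* and *PARP14* did not pass. *PARP12* was at 43.7, 51.9 and 54.6 CPM in LEADR-KD, against 32.6, 31.7 and 50.9 CPM in Scramble (log2 fold change 0.39, SE 0.17, adjusted p = 0.122). Without Scramble 3 its log2 fold change was 0.64 (adjusted p = 0.00391), and with another library left out it was as low as 0.26. *PARP10* spanned 59.7 to 105 CPM in LEADR-KD and 60.5 to 95.9 CPM in Scramble, and *PARP14* 88.3 to 139 CPM in LEADR-KD and 81.0 to 142 CPM in Scramble, with log2 fold changes of 0.14 and -0.03. *PARP10* overlaps *GRINA* on the opposite strand by 3358 bases.

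*SAMD9* and *SAMD9L*, neighbours on chromosome 7 with 12031 bases between them that restrict poxviruses and shut down translation, both rose. *SAMD9* was at 45.4, 41.6 and 48.7 CPM in LEADR-KD, against 18.3, 9.29 and 22.4 CPM in Scramble (log2 fold change 1.45, SE 0.24, adjusted p = 0.00112). *SAMD9L* was at 14.7, 20.1 and 22.4 CPM in LEADR-KD, against 4.89, 1.90 and 7.88 CPM in Scramble (log2 fold change 1.98, SE 0.36, adjusted p = 0.00204). Neither overlapped between the groups, and *SAMD9L* had the second largest change of the list.

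Among the membrane and secreted proteins 3 of 8 tested genes rose. *LY6E*, a lipid-anchored surface protein that limits coronavirus entry, was at 263, 279 and 307 CPM in LEADR-KD, against 167, 204 and 212 CPM in Scramble (log2 fold change 0.54, SE 0.10, adjusted p = 0.00276). *PLSCR1*, a phospholipid scramblase, was at 64.6, 82.7 and 107 CPM in LEADR-KD, against 46.1, 33.1 and 71.1 CPM in Scramble (log2 fold change 0.76, SE 0.24, adjusted p = 0.0378). *LAMP3*, a lysosomal membrane protein, was at 18.2, 22.4 and 28.9 CPM in LEADR-KD, against 13.0, 8.11 and 18.6 CPM in Scramble (log2 fold change 0.82, SE 0.25, adjusted p = 0.0368). The groups of *LY6E* were apart, whereas in *PLSCR1* and *LAMP3* LEADR-KD 1 lay below Scramble 3. These last calls were lost without any 1 of LEADR-KD 2, LEADR-KD 3, Scramble 1 or Scramble 2, with adjusted p up to 0.142 for *PLSCR1* and 0.136 for *LAMP3*, and DESeq2 did not call *PLSCR1* (adjusted p = 0.127).

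*BST2*, or tetherin, holds budding virions at the cell surface. It was at 12.6, 13.2 and 35.9 CPM in LEADR-KD, against 5.24, 3.75 and 29.5 CPM in Scramble (log2 fold change 0.69, SE 0.63, adjusted p = 0.474). *IFITM3* was at 23.8, 29.6 and 51.8 CPM in LEADR-KD, against 19.1, 14.8 and 49.5 CPM in Scramble (log2 fold change 0.34, SE 0.39, adjusted p = 0.573). In both genes the libraries numbered 3 stood above the other 4. *IFITM1*, with few counts, was at 0.940, 2.48 and 2.66 CPM in LEADR-KD, against 0.589, 0.205 and 1.37 CPM in Scramble (log2 fold change 1.51, SE 0.59, adjusted p = 0.0834). Without Scramble 3 the log2 fold changes of *BST2*, *IFITM3* and *IFITM1* were 2.20, 1.05 and 2.37, and each passed (adjusted p = 0.00281, 0.0159 and 0.0223). They were as low as 0.02, -0.05 and 1.05 with another library left out. IFITM genes are close paralogues, and how the counting shared reads between them is not given. *IFITM1* shares 1767 bases with *IFITM2* on the same strand. Its low counts therefore cannot be read as low expression.

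*LGALS3BP*, a secreted glycoprotein that binds galectins, was the most abundant of the list per length, at a mean of 205 FPKM in LEADR-KD and 180 FPKM in Scramble. It spanned 672 to 828 CPM in LEADR-KD and 580 to 756 CPM in Scramble (log2 fold change 0.18, adjusted p = 0.325). *RTP4*, a receptor transport protein of the Golgi, spanned 3.57 to 5.78 CPM in LEADR-KD and 3.42 to 7.52 CPM in Scramble (log2 fold change -0.11, adjusted p = 0.822). Neither passed. After *LGALS3BP*, the highest mean levels in LEADR-KD were those of *LY6E* (107 FPKM), *IFI6* (80.8 FPKM), *ADAR* (55.6 FPKM) and *ISG15* (54.3 FPKM), against 72.8, 53.3, 59.4 and 35.0 FPKM in Scramble.

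The small IFI proteins and *XAF1* had the widest median Scramble ratio of the role groups, 10.2, and 0 of 3 rose. *IFI6*, a membrane protein with antiapoptotic activity, was at 47.1, 50.1 and 113 CPM in LEADR-KD, against 27.3, 10.1 and 102 CPM in Scramble (log2 fold change 0.60, SE 0.60, adjusted p = 0.523). *IFI27*, of the same family, was at 6.26, 9.30 and 27.0 CPM in LEADR-KD, against 2.83, 1.54 and 21.0 CPM in Scramble (log2 fold change 0.76, SE 0.75, adjusted p = 0.512). The highest Scramble library exceeded the lowest by ratios of 10.2 in *IFI6* and 13.6 in *IFI27*, wider than the ratio of the group means in any gene of the list, at most 7.47 in *RSAD2*. *XAF1*, which counters the apoptosis inhibitor XIAP, was at 41.0, 49.2 and 74.0 CPM in LEADR-KD, against 22.9, 7.08 and 39.8 CPM in Scramble (log2 fold change 1.24, SE 0.43, adjusted p = 0.0538). *XAF1* was the 1 gene whose groups did not overlap and which yet did not pass. Without Scramble 3 the log2 fold changes were 1.92 for *IFI6*, 2.71 for *IFI27* and 1.88 for *XAF1*, and each passed. Leaving out another library gave values as low as 0.07, -0.10 and 0.81.

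*IFI44L* and *IFI44*, neighbours on chromosome 1 with 3.65 kb between them, encode related cytoplasmic proteins. *IFI44L* was at 28.4, 34.9 and 58.7 CPM in LEADR-KD, against 13.8, 2.10 and 33.9 CPM in Scramble (log2 fold change 1.30, SE 0.60, adjusted p = 0.141). *IFI44* was at 22.9, 39.8 and 58.5 CPM in LEADR-KD, against 16.4, 8.52 and 44.4 CPM in Scramble (log2 fold change 0.81, SE 0.47, adjusted p = 0.242). Scramble 3 overlapped LEADR-KD in both, and Scramble 2 held the lowest level, which for *IFI44L* gave the widest Scramble ratio of the list, 16.1. Without Scramble 3 both passed, with log2 fold changes of 2.38 and 1.71. Values were as low as 0.77 and 0.41 with another library left out.

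*EPSTI1* and *TDRD7*, grouped with them as cytoplasmic proteins, rose. *EPSTI1* was at 4.64, 5.45 and 9.17 CPM in LEADR-KD, against 2.30, 1.23 and 3.70 CPM in Scramble (log2 fold change 1.43, SE 0.37, adjusted p = 0.0165). *TDRD7*, a Tudor domain protein, was at 39.0, 38.6 and 42.2 CPM in LEADR-KD, against 17.6, 21.1 and 27.5 CPM in Scramble (log2 fold change 0.86, SE 0.15, adjusted p = 0.00161). Neither overlapped. The *EPSTI1* call was lost without LEADR-KD 3 (adjusted p = 0.0775) and without Scramble 2 (adjusted p = 0.0543).

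**Figure D4:**
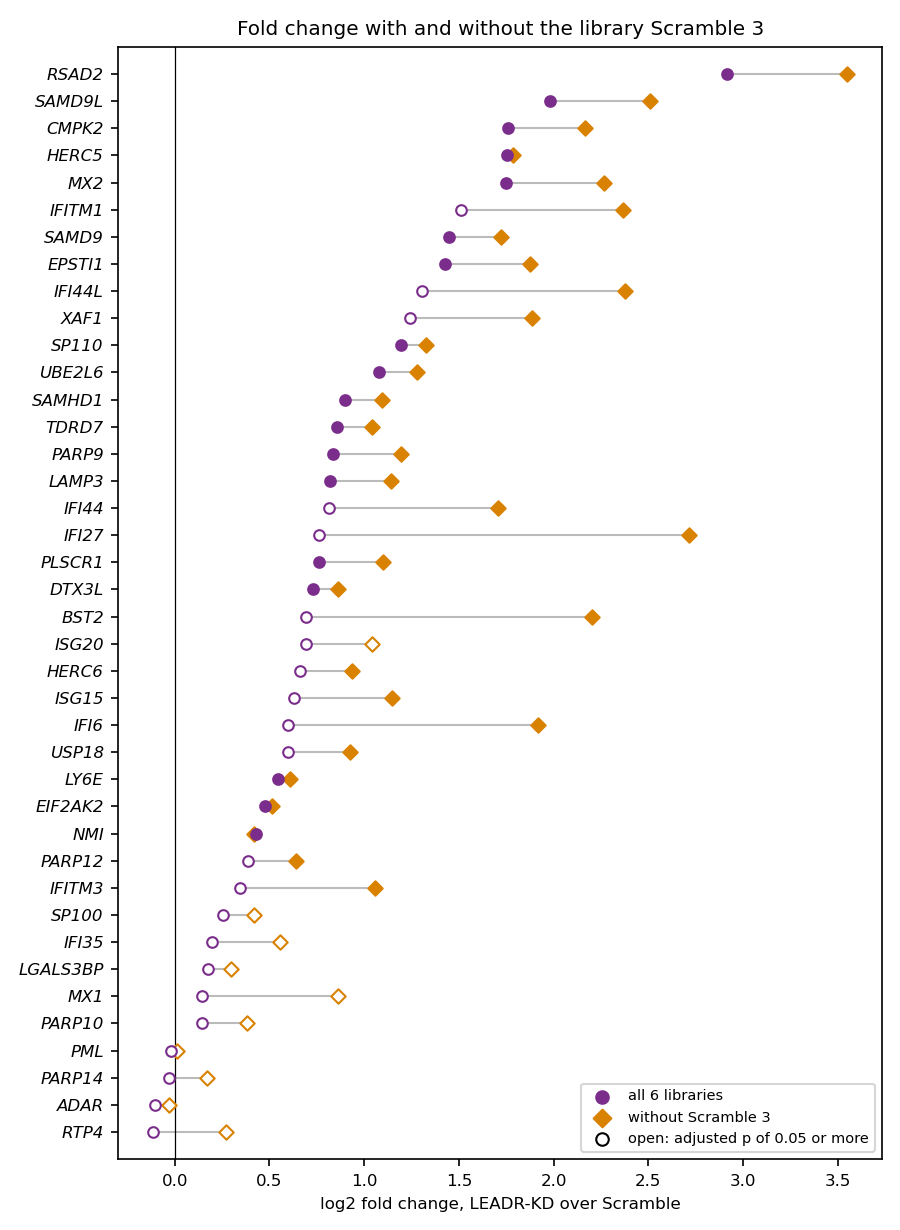
Log2 fold change of each tested antiviral gene with all 6 libraries (purple circles) and without Scramble 3 (orange diamonds), filled where the adjusted p was under 0.05. The number of filled symbols is 18 with all libraries and 30 without Scramble 3, and the longest shifts are those of *IFI27*, *BST2* and *IFI6*. Fits that leave out another library are not shown.

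Of the nuclear proteins 2 of 5 tested genes rose. *SP110*, a nuclear body protein, was at 35.3, 37.9 and 44.9 CPM in LEADR-KD, against 18.4, 13.1 and 20.3 CPM in Scramble (log2 fold change 1.19, SE 0.16, adjusted p = 0.000323). *NMI*, which binds STAT and MYC proteins, was at 37.8, 38.5 and 44.9 CPM in LEADR-KD, against 29.0, 31.5 and 29.7 CPM in Scramble (log2 fold change 0.43, SE 0.11, adjusted p = 0.0135). Both were separated between the groups, and the *NMI* call was lost without LEADR-KD 3 (adjusted p = 0.0619). *SP100*, a second nuclear body protein, was at 51.3, 63.8 and 72.7 CPM in LEADR-KD, against 50.1, 43.6 and 63.9 CPM in Scramble (log2 fold change 0.25, SE 0.15, adjusted p = 0.258). *PML*, which builds the nuclear bodies, spanned 127 to 149 CPM in LEADR-KD and 125 to 144 CPM in Scramble (log2 fold change -0.02, SE 0.09, adjusted p = 0.889). *IFI35*, the partner of NMI, spanned 14.8 to 26.1 CPM in LEADR-KD and 10.1 to 23.9 CPM in Scramble (log2 fold change 0.20, adjusted p = 0.666). These 3 genes overlapped and did not pass.

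Upstream of these genes, a list of 28 ligands, receptors, kinases, transcription factors and inhibitors of the interferon pathway was counted in the same fit. None of the 8 interferon ligands had enough counts to be tested: *IFNA1*, *IFNE*, *IFNL2*, *IFNL3* and *IFNG* had 0 counts in every library, and *IFNB1*, *IFNK* and *IFNL1* had at most 1 in any library. Of the 20 genes tested 3 rose, 1 fell and 16 did not pass, and 3 of 20 is near the 12.2% of all genes that rose. The kinase *JAK2* was at 8.77, 6.93 and 6.46 CPM in LEADR-KD, against 4.30, 4.003 and 3.52 CPM in Scramble (log2 fold change 0.90, SE 0.20, adjusted p = 0.00740). All 3 LEADR-KD libraries were above all 3 Scramble libraries.

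*SOCS3*, a feedback inhibitor of JAK kinases, was at 6.20, 7.59 and 7.25 CPM in LEADR-KD, against 2.89, 4.26 and 3.76 CPM in Scramble (log2 fold change 0.94, SE 0.21, adjusted p = 0.00740). *IFNAR1*, a chain of the type I receptor, fell, with 70.3, 58.6 and 61.9 CPM in LEADR-KD, against 83.9, 82.8 and 82.3 CPM in Scramble (log2 fold change -0.38, SE 0.09, adjusted p = 0.00961). That call was lost without LEADR-KD 2 (adjusted p = 0.0543). Neither gene overlapped between the groups. The transcription factors shared the library order of the antiviral genes in Scramble, with Scramble 3 the highest and Scramble 2 the lowest in 6 of 6. That order held in 1705 of the 14178 genes tested. In LEADR-KD, library 3 was the highest in 4 of the 6.

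The related families that are not part of the list gave, in the same fit, 4 of 4 rising for the IFIT genes (median log2 fold change 1.75), 1 rising and 1 falling of 4 for the OAS genes (0.42), 2 rising and 1 falling of 4 tested GBP genes (0.22) and 3 of 7 rising for the class I HLA genes (0.31). No difference between these families and the 40 antiviral genes was tested. A fall, seen once each in the OAS and GBP families, was not seen among the 40.

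Matches to the siRNA seed were counted in the longest annotated 3′ UTR of each gene (GENCODE release for GRCh37), since a seed match is how an siRNA can act on RNAs other than its target. Of all genes tested 14.6% had no annotated 3′ UTR and could hold no match, against 0 of the 40, which lowers the shares over all genes for both strands. For the complement strand, 6 of the 40 tested genes (15%) held a match of 7 or 8 bases, against 13.1% of all genes tested. Of these 6 genes 4 rose and 0 fell, where of all genes with such a match 16.9% rose and 14.4% fell. Of the 434 genes tested with the 8-base match 15.4% rose and 18.7% fell. Of genes with a 3′ UTR and no match to the complement strand 13.2% rose and 12.4% fell. The 8-base match ATATAGGA was in *RSAD2* and *IFI35*, at sites shown with the match in capitals, on the plus strand of GRCh37.
RSAD2, chr2:7017293-7017312: atatcaaaATATAGGAagat
IFI35, chr17:41166377-41166396: gggtgcccATATAGGAggtc
The *RSAD2* site is far from the 3′ end of the gene, whose bounds are 7005937 and 7038370. The longest 3′ UTR can belong to an alternative transcript. Whether the *RSAD2* RNA measured here, which had the largest rise of the list, holds the site was not tested. For the listed strand, 4 of 40 (10%) held a match of 7 or 8 bases, against 18.7% of all genes, and 0 held the 8-base match ACCCAGTA, against 2.54%. Of the 360 genes tested with that 8-base match 28 rose and 119 fell (7.78% and 33.1%). The 7-base match ACCCAGT was in *SAMHD1*, *PARP9* and *PARP14*, and the first 2 of these rose. Of all genes with a match of 7 or 8 bases to the listed strand 10.8% rose and 22.3% fell. Where a 3′ UTR held no match to the listed strand, 15.8% of genes rose and 8.63% fell. Whether the duplex ends where the listed sequence ends is not stated, which bears on the seed of the listed strand, and no binding was measured.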

How the data were processed

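Poly(A) RNA of RT4 cells was measured in 3 LEADR-KD and 3 Scramble libraries, grouped by the submitters' titles. The library kit was directional (dUTP). The authors deposited raw counts of reads for each gene. The tools in the submitters' notes include an aligner, HISAT2 (2.0.5), and a read counter, featureCounts (1.5.0-p3), with hg19 as the build, while the paper's methods describe quantification by Salmon. No source used here states whether strand was used in counting. The authors also deposited FPKM values, which divide the counts by gene length and library size. Another table holds the log2 fold changes and p-values of the authors' own DESeq2 comparison and was not used.

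Counts were analysed as deposited. Of 57905 genes 25957 had any count and 14178 passed filterByExpr (minimum count 10). LEADR-KD was compared with Scramble in R 4.3.3 by edgeR 4.0.16 (TMM scaling, quasi-likelihood test, no covariate), with Benjamini-Hochberg adjustment over all genes tested. The standard error is the log2 fold change divided by the square root of F. The biological coefficient of variation was 12.6%. Levels were compared between genes on FPKM. The steps were tested on simulated counts. Depth, from 15706033 to 18960822 counts per library, limits *ISG20* and *BATF2* most. *IFITM1* also had few counts, but it lies inside the bounds of *IFITM2*, and how reads of that overlap were counted is not given.

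The members and lists were chosen with earlier results of these data known. Every member is named. Values in each library are given for members past the threshold and for those whose call differed in DESeq2 or with a replicate block. *MX1* was added to these after its values were seen. Of other genes, *MIR205HG* and the pathway genes past the threshold are named, except for a result that is not reported here. *TAP2* and *PECAM1*, of the lists, were not matched to 1 gene and are not analysed here. Alternatives were DESeq2 1.42.0, median-of-ratios factors or library totals, no filter or a stricter 1 (mean of at least 5 CPM), limma 3.58.1 on log2(FPKM + 1) or log2(FPKM + 0.1) and on log2(FPKM + 1) with no filter, a replicate block and leaving out each library. Leaving out both libraries numbered 1, which have the highest mitochondrial shares, was added after seeing the data.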

Additional observations from a re-analysis of the deposited data

How the results depend on the processing

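No antiviral gene fell in any of the 16 alternatives run. The count of those that rose, 18 of 40 (12.2% of all genes), was 17 in DESeq2 (13.8%), with 16 shared with edgeR. It was 18 with median-of-ratios factors (12.4%), 14 with library totals (7.65%) and 16 with limma at either pseudocount (11.3%). With the stricter filter, which tested 35 of the antiviral genes, it was 15 (14.6%). It was 30 of 41 tested with no filter on counts (7.30%) and 10 of 41 in limma with no filter (3.53%). With 1 library left out, 40 or 41 genes were tested and the count was 13 to 30 (8.23% to 9.99% of all genes). The median log2 fold change ranged from 0.47 to 1.10 over these last fits. Of the 18, 9 were called in every alternative that tested them, among them *HERC5*, which was not tested with the stricter filter. Of the 22 that did not pass, 12 were called without Scramble 3. Without both libraries numbered 1, the count was 19 of 41 (9.98%). For the pathway list, the count that rose was 2 to 5 with 1 library left out and 1 with limma with no filter. The count that fell was 3 in DESeq2 and with no filter, 2 with the stricter filter and without both libraries numbered 1, and 0 to 2 with 1 library left out. *MIR205HG* stayed lower throughout, with an adjusted p of 0.0507 (log2 fold change -1.16) in limma with no filter and adjusted p from 0.00148 to 0.00771 with 1 library left out. The cause of these shifts was not tested.

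With 1 library left out, the sign turned in genes that did not pass, and their log2 fold changes ranged from -0.23 to 0.17 for *PARP14*, -0.33 to 0.27 for *RTP4*, -0.0904 to 0.0233 for *PML*, -0.32 to 0.86 for *MX1*, -0.0924 to 0.38 for *PARP10*, -0.0482 to 1.05 for *IFITM3*, -0.10 to 2.71 for *IFI27* and -0.10 to 0.56 for *IFI35*. Without both libraries numbered 1, *PARP14* was at 0.12 and *PML* at 0.0497.

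The labels do not say what the replicate numbers mark. Deviations from the group means correlated across genes at 0.23, 0.00058 and 0.27 between same-numbered libraries. LEADR-KD 1 and 3 correlated best with their own number, and LEADR-KD 2 with Scramble 3 (0.0755). Over the 40 antiviral genes alone the same-numbered values were 0.21, 0.21 and 0.88, and LEADR-KD 1 correlated better with Scramble 2 (0.70). The mitochondrial share was highest in library 1 and lowest in library 3 of both groups. The numbers were not taken as pairs in the main fit, and whether they mark a batch was not tested. With the number as a replicate block, 31 antiviral genes rose and 0 fell (17.6% and 16.7% of all genes), the median log2 fold change was 0.82, and 5 pathway genes rose and 3 fell.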
